A study of Mus musculus with 8 samples.

Results

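The genes described here are 38 genes that fold proteins in the endoplasmic reticulum (ER), move proteins into it, clear misfolded proteins from it or sense their build-up, out of 55450 genes in a table of total RNA sequencing from RAW264.7 cells. They were taken by name from a list of chaperones, disulfide enzymes, ER-associated degradation genes, stress sensors and translocon genes, and all 38 were found in the table. RAW264.7 is an established mouse macrophage-like cell line. Cells with an shRNA against Dis3l2 (shDis3l2) were set against cells with a non-silencing shRNA (shNS). Dis3l2 encodes an exoribonuclease that degrades uridine-tailed RNAs. There were 3 shDis3l2 and 3 shNS libraries from cells given doxycycline at 1 µg/mL for 4 days, and 1 shDis3l2 and 1 shNS library from cells grown without it. All 8 libraries came from the same parental line in the same medium, and doxycycline is commonly used to switch an shRNA on. Whether each shRNA line was a clone or a pool is not given in the sources used here, and the labels do not state that replicates were separate cultures, so every p-value here covers the variation between libraries, and that variation may be technical.

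Secreted and membrane proteins enter the ER through the Sec61 channel and are folded there by chaperones and by enzymes that make and rearrange disulfide bonds. Proteins that fail to fold are pushed back to the cytosol and degraded. When misfolded proteins build up, the membrane sensors IRE1 (gene Ern1), ATF6 and PERK (gene Eif2ak3) start the unfolded protein response, in which the transcription factors XBP1, ATF6 and ATF4 raise chaperone and degradation genes. Macrophages rely on this machinery because they secrete cytokines and enzymes, and IRE1 and XBP1 also take part in their cytokine responses.

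The libraries held 30341823 to 45557804 counts, with 17388 to 18267 genes detected. Levels are CPM, counts scaled to a fixed library total after TMM, edgeR's normalization of library composition, unless said otherwise. Dis3l2 was at 12.0, 13.7 and 15.1 CPM in shDis3l2 with doxycycline, against 32.4, 28.4 and 21.7 CPM in shNS with doxycycline, so it fell by 1.05 on the log2 scale (SE 0.19, edgeR adjusted p = 0.0216). Without doxycycline it was at 28.9 CPM in shDis3l2 and 29.7 CPM in shNS. One library stood apart from its group: replicate 2 of shNS with doxycycline had a Pearson r across genes of 0.9845 with untreated shNS, and of 0.9389 and 0.9447 with replicates 1 and 3 of its own group, on log2 CPM. Of 10 macrophage markers, 9 were at or above 1 CPM in every library. The other one, Mertk, was at 0 in all 4 shDis3l2 libraries. It was at 0.588, 41.1 and 0.879 CPM in shNS with doxycycline and at 46.7 CPM in untreated shNS, so it also differed widely among the shNS libraries. In RNA from whole cultures, fewer cells of a type and less RNA per cell cannot be told apart.

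The most abundant of the 38 genes per length were, in CPM per kilobase of merged exons averaged over the libraries, P4hb (282), Calr (225), Hspa5 (213), Hsp90b1 (211), Canx (172) and Pdia3 (169). At the other end were Wfs1 (1.05) and Derl3 (0.0030). Derl3, a paralog of the derlin channel proteins, had 1 count in replicate 1 of shDis3l2 with doxycycline and 1 in untreated shDis3l2. It had 0 counts in the other 6 libraries, and 3 counts, the limit that a count of 0 allows, would be 0.0687 to 0.0928 CPM per library. It was not tested, and counts of tested genes below are out of 37.

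A promoter motif of the ER stress response was shared by part of the genes. The genes were listed for their known part in ER folding and stress, so a raised share of this motif among them is a description and no independent finding. The ER stress response element (ERSE), which reads CCAAT, 9 bases of any kind and CCACG, is a promoter motif bound by ATF6 and XBP1 together with the factor NF-Y. RefSeq promoter windows of GRCm38.p6, covering 250 bases before to 50 after the gene start, were at hand for 32 of the 38 genes and were searched on both strands. The ERSE was present in 9 of these 32 (28.1%), namely Hspa5, Hsp90b1, Calr, Canx, Pdia6, Dnajc3, Creld2, Syvn1 and Derl3. Over all genes with a window it was present in 37 of 27025 (0.137%), so these 9 were 24.3% of all genes with the motif. The related element ERSE-II, which reads ATTGG, 1 base of any kind and CCACG, was found in Herpud1 and Dnajb11, and in 0.0365% of all windows. A match is a run of letters, not a shown binding site, and a gene with no match has none in this window only.

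The following stretches are shown because they carry the motif in the genes with the highest levels or the widest spread between libraries, with the ERSE or ERSE-II in capitals, read 5′ to 3′ in the direction of the gene. In Calr and Creld2 the element lies on the opposite strand, and it therefore reads CGTGG first. Hsp90b1 has one element in each direction. P4hb is added as a high-level gene without either element. In the GENCODE M21 annotation Hspa5 starts 120 bases before the RefSeq start, so its printed stretch lies inside the gene there. The other stretches lie before the gene start in both annotations.
Hspa5, chr2:34772020-34772049, plus strand: cttcaCCAATCGGAGGCCTCCACGacgggg
Hsp90b1, chr10:86705510-86705664, minus strand: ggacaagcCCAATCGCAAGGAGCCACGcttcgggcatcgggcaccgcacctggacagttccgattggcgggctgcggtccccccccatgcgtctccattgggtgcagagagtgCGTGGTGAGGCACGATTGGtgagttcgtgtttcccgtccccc
Calr, chr8:84846935-84847111, minus strand: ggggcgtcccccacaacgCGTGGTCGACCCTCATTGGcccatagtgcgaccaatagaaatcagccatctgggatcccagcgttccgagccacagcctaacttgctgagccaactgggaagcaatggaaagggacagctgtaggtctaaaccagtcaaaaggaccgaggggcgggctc
Pdia6, chr12:17266469-17266544, plus strand: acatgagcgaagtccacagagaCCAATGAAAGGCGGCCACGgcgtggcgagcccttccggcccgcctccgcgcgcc
Creld2, chr15:88819506-88819645, plus strand: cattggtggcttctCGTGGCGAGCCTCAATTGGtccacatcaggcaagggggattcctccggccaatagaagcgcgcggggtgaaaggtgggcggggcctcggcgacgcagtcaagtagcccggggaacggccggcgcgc
Herpud1, chr8:94386309-94386428, plus strand: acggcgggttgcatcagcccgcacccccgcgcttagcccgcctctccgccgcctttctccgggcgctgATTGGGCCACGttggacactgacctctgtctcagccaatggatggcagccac
P4hb, chr11:120573254-120573473, minus strand: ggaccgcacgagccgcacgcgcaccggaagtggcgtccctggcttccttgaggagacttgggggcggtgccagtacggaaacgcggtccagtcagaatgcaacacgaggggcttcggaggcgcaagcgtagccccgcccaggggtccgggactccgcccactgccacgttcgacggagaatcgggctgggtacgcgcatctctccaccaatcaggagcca

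With doxycycline, shDis3l2 cells differed from shNS cells in 1 of the 37 genes past the threshold of 0.05 on edgeR's adjusted p. P4hb was lower by 1.08 on the log2 scale, and no gene of the set was called higher. Over all 13752 genes tested, 4.01% were called lower and 2.13% higher, so the count of 1 in 37 was near or below that background. Without adjustment, Atf6 was higher and P4hb, Ern1, Wfs1 and Ssr3 were lower at p under 0.05, which is 1 and 4 genes against backgrounds of 8.80% and 12.0%. The median log2 fold change of the 37 genes was -0.14, with 9 positive and 28 negative values from -1.18 to 0.81, beside -0.002 over all genes tested. Levels of the lines did not overlap for Sel1l and Atf6, which were higher in all 3 shDis3l2 libraries, and for P4hb, Ern1, Wfs1, Ssr1 and Ssr3, which were lower in all 3. The background for such separation was 14.7% of 15250 genes in the first direction and 13.2% in the second.

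**Figure D1:**
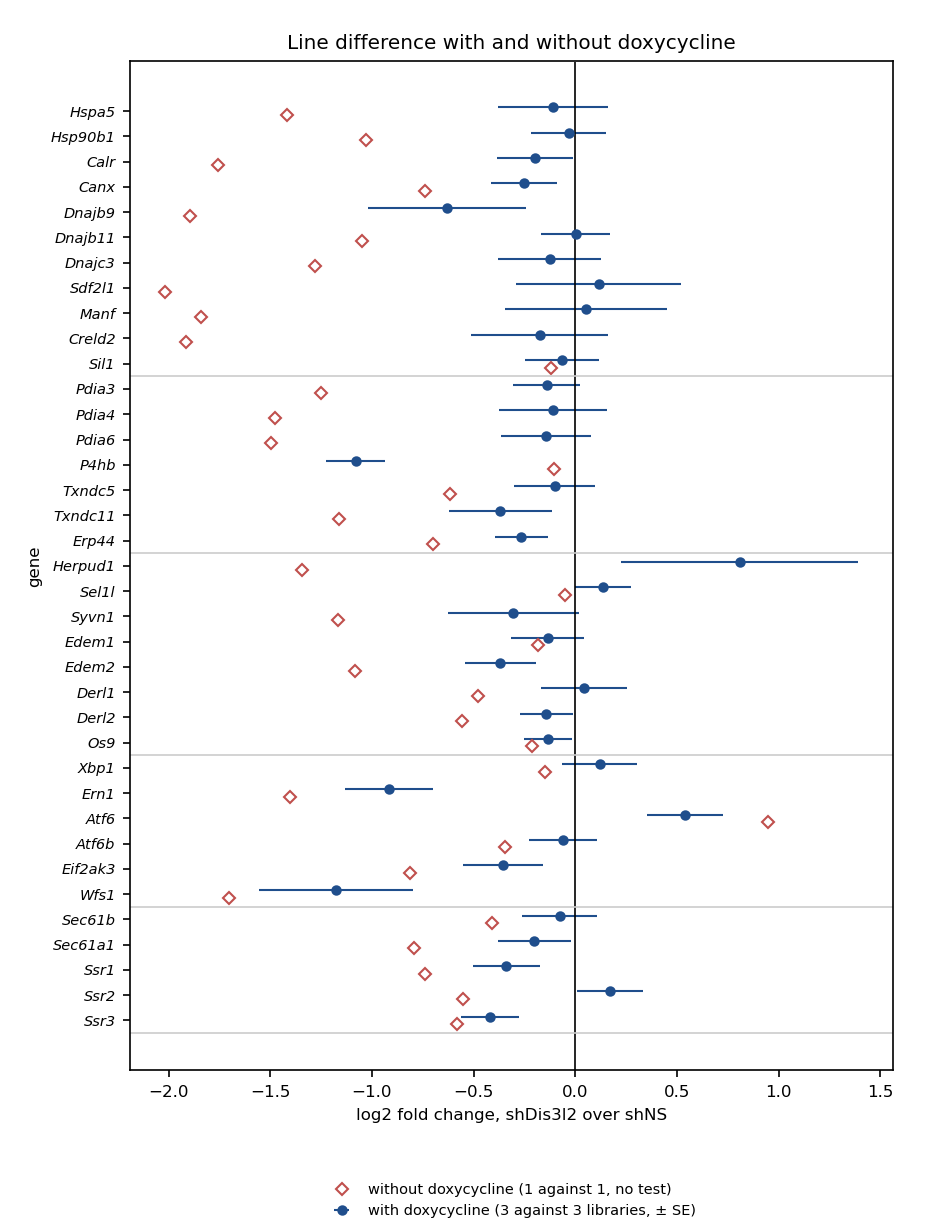
Log2 difference of shDis3l2 over shNS for the 37 tested genes, grouped by role; filled circles are the comparison with doxycycline with its standard error (3 libraries each), and open diamonds are the ratio of the 2 libraries without doxycycline, which has no test. The circles run from -1.18 (Wfs1) to 0.81 (Herpud1) with a median of -0.14, and P4hb at -1.08 is the 1 gene that passed the test, while most diamonds lie to the left, with a median of -0.81.

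P4hb encodes protein disulfide isomerase, which makes and rearranges disulfide bonds and is also a subunit of collagen prolyl 4-hydroxylase. It lies on chromosome 11 at 120560298 to 120573253 (minus strand, GRCm38). Its level was 508, 526 and 590 CPM in shDis3l2 with doxycycline, against 1023, 1118 and 1218 CPM in shNS with doxycycline, and 706 CPM in untreated shDis3l2 against 760 CPM in untreated shNS. The doxycycline libraries of shDis3l2 were thus the 3 lowest and those of shNS the 3 highest of the 8, with the untreated libraries between them. The means were 541 ± 43.1 and 1120 ± 97.8 CPM (SD, n = 3 each), with a log2 fold change of -1.08 (SE 0.14, edgeR adjusted p = 0.00885). Leaving out replicate 2 of shDis3l2 ended the call (edgeR adjusted p = 0.0690), while the log2 fold change stayed between -1.12 and -1.02 over the 6 fits that left out 1 library each. P4hb was also the single gene of the set whose level moved towards lower values with doxycycline in shDis3l2 (log2 fold change -0.38) and one of 9 that moved towards higher values in shNS (0.58, edgeR adjusted p = 0.990).

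None of the other 6 disulfide enzymes passed the test with doxycycline, and their log2 fold changes lay between -0.37 (Txndc11) and -0.10 (Txndc5). Pdia3, which works on glycoproteins held by calreticulin and calnexin, was at 513, 489 and 533 CPM in shDis3l2 with doxycycline, against 540, 656 and 460 CPM in shNS with doxycycline, and at 314 CPM in untreated shDis3l2 against 747 CPM in untreated shNS. Pdia6, which acts beside the chaperone BiP, was at 273, 224 and 233 CPM in shDis3l2 with doxycycline, against 272, 330 and 186 CPM in shNS with doxycycline, and at 117 CPM in untreated shDis3l2 against 331 CPM in untreated shNS. For both genes the lines overlapped with doxycycline, and the untreated shDis3l2 library was the lowest and untreated shNS the highest of the 8. Their log2 fold changes with doxycycline were -0.14 each (SE 0.17 and 0.22, edgeR adjusted p = 0.703 and 0.788).

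The 11 folding chaperones and co-chaperones had a median log2 fold change of -0.11 between the lines with doxycycline, none past the threshold. Hspa5, which encodes BiP, the Hsp70 chaperone that also holds the stress sensors inactive, was at 1112, 785 and 842 CPM in shDis3l2 with doxycycline, against 697, 1351 and 846 CPM in shNS with doxycycline. In untreated cells it was at 428 CPM in shDis3l2 and 1144 CPM in shNS. The highest value was replicate 2 of shNS and the lowest the untreated shDis3l2 library, and the lines overlapped with doxycycline (log2 fold change -0.11, SE 0.27, edgeR adjusted p = 0.879). Hsp90b1, the ER member of the Hsp90 family, was at 919, 815 and 876 CPM in shDis3l2 with doxycycline, against 937, 995 and 680 CPM in shNS with doxycycline, and at 520 CPM in untreated shDis3l2 against 1063 CPM in untreated shNS. Calr encodes calreticulin, a calcium-binding lectin chaperone of glycoproteins. It was at 695, 575 and 615 CPM in shDis3l2 with doxycycline, against 658, 873 and 587 CPM in shNS with doxycycline, and at 272 CPM in untreated shDis3l2 against 920 CPM in untreated shNS. Both had overlapping lines with doxycycline (log2 fold changes -0.03 and -0.20, edgeR adjusted p = 0.951 and 0.619) and a single low library, the untreated shDis3l2 one.

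Among the remaining chaperones, singled out after their values were seen, Sdf2l1, a partner of the co-chaperone Dnajb11, was at 102, 47.8 and 46.7 CPM in shDis3l2 with doxycycline, against 65.9, 76.8 and 34.6 CPM in shNS with doxycycline, and at 20.4 CPM in untreated shDis3l2 against 82.7 CPM in untreated shNS. Manf, a secreted ER protein that binds BiP, was at 173, 90.9 and 91.0 CPM in shDis3l2 with doxycycline, against 85.2, 174 and 76.1 CPM in shNS with doxycycline, and at 45.6 CPM in untreated shDis3l2 against 164 CPM in untreated shNS. In both genes replicate 1 was the highest of the shDis3l2 libraries and replicate 2 of the shNS libraries. Manf overlaps Rbm15b on the same strand and Dcaf1 on the other, so part of its estimate may belong to them. Sil1, which recharges BiP with nucleotide, was at 23.1 to 29.4 CPM in shDis3l2 with doxycycline, against 20.3 to 29.1 CPM in shNS with doxycycline, and at 22.8 CPM in untreated shDis3l2 against 24.8 CPM in untreated shNS. The remaining 5, the lectin chaperone Canx and the co-chaperones and partners Dnajb9, Dnajb11, Dnajc3 and Creld2, had log2 fold changes with doxycycline between -0.63 (Dnajb9) and 0.0022 (Dnajb11). Sil1 had the narrowest untreated difference of the chaperones, a log2 ratio of -0.12.

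**Figure D2:**
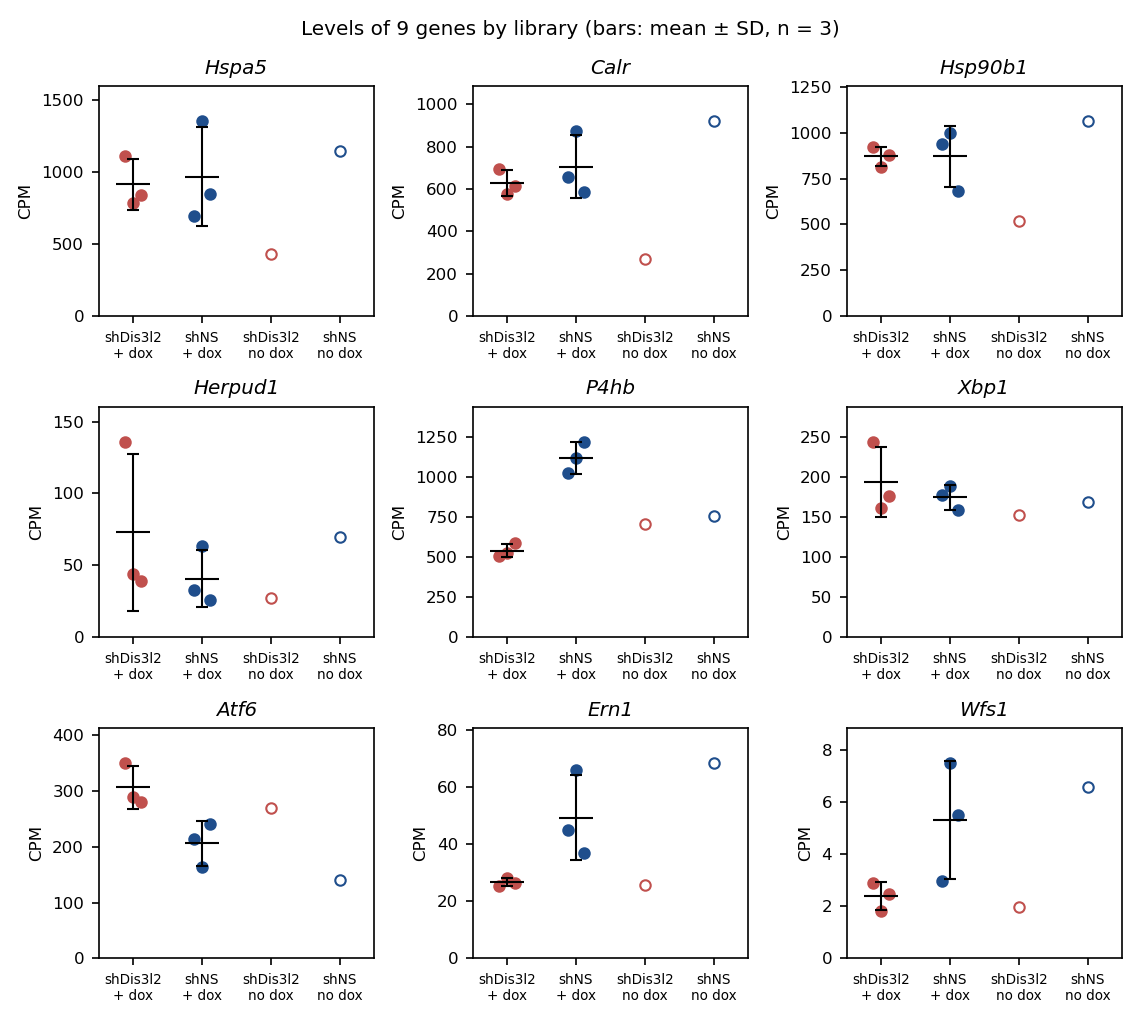
TMM-scaled CPM of 9 genes in each library; points are libraries, and bars give the mean ± SD of the 3 libraries of each line with doxycycline. P4hb separates the lines with doxycycline (508 to 590 CPM in shDis3l2 and 1023 to 1218 CPM in shNS), whereas Hspa5 and Calr are lowest in the untreated shDis3l2 library (428 and 272 CPM).

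The 8 tested genes of ER-associated degradation, which finds misfolded proteins, moves them out and tags them with ubiquitin, had a median log2 fold change of -0.14 with doxycycline and none past the threshold. Edem1, a mannosidase-like protein that marks misfolded glycoproteins, was at 333, 240 and 243 CPM in shDis3l2 with doxycycline, against 253, 325 and 300.3 CPM in shNS with doxycycline, and at 220.2 CPM in untreated shDis3l2 against 250.2 CPM in untreated shNS. Derl1, a channel protein of this route, was at 161, 98.3 and 105 CPM in shDis3l2 with doxycycline, against 102, 124 and 121 CPM in shNS with doxycycline, and at 87.2 CPM in untreated shDis3l2 against 121 CPM in untreated shNS. The lectin gene Os9 stayed in a narrow band, at 80.9, 84.7 and 90.9 CPM in shDis3l2 with doxycycline, against 85.2, 93.1 and 97.4 CPM in shNS with doxycycline, and at 75.2 CPM in untreated shDis3l2 against 87.3 CPM in untreated shNS. For these 3 genes the lines overlapped with doxycycline, with log2 fold changes of -0.14, 0.04 and -0.13 and edgeR adjusted p of 0.744, 0.946 and 0.595.

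Herpud1, singled out after its values were seen, encodes a stress-induced protein that organises the ubiquitin ligase of this route. It had the highest log2 fold change of the set, 0.81 (SE 0.58, edgeR adjusted p = 0.512). Its level was 136, 43.9 and 39.1 CPM in shDis3l2 with doxycycline, against 33.2, 63.4 and 26.0 CPM in shNS with doxycycline, and 27.4 CPM in untreated shDis3l2 against 69.6 CPM in untreated shNS. The difference rested on replicate 1 of shDis3l2, without which the log2 fold change was -0.01. Sel1l, which holds the ligase together, was the least variable between the untreated libraries, at 165 CPM in shDis3l2 and 170.3 CPM in shNS. Syvn1, the ligase itself, and Derl2 overlap Mrpl49 and Mis12 on the opposite strand, and the strand setting of the counting is not given in the sources used here, so their values are uncertain. Edem2, a relative of Edem1, had the lowest log2 fold change of the degradation genes with doxycycline, -0.37 (edgeR adjusted p = 0.288).

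The 6 sensors and regulators held the widest range of differences between the lines with doxycycline. Ern1, singled out after its values were seen, encodes IRE1, the kinase and nuclease that splices Xbp1 mRNA. It was at 25.4, 28.1 and 26.6 CPM in shDis3l2 with doxycycline, against 45.1, 66.0 and 36.9 CPM in shNS with doxycycline, and at 25.8 CPM in untreated shDis3l2 against 68.4 CPM in untreated shNS. All 4 shDis3l2 libraries were below all 4 shNS libraries. The difference with doxycycline (log2 fold change -0.92, SE 0.22) missed the threshold in edgeR (adjusted p = 0.0532). It passed in 3 of the 14 alternative settings described below, with log2 fold changes of -1.09 to -0.66 over the 14. Among the 3 were DESeq2 (adjusted p = 0.00395) and edgeR without replicate 3 of shNS (adjusted p = 0.0278). Wfs1, an ER membrane protein that restrains ATF6 signalling, was at 2.88, 1.84 and 2.48 CPM in shDis3l2 with doxycycline, against 2.97, 7.51 and 5.50 CPM in shNS with doxycycline, and at 1.98 CPM in untreated shDis3l2 against 6.58 CPM in untreated shNS (log2 fold change with doxycycline -1.18, SE 0.38, edgeR adjusted p = 0.126, DESeq2 adjusted p = 0.0339). Its shDis3l2 libraries were likewise the 4 lowest of the 8, though replicate 1 of shNS lay close to them. Wfs1 passed in 2 of the 14 alternative settings.

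Atf6, the precursor of a transcription factor released from the membrane under stress, ran the other way. It was at 349.8, 289.6 and 279.9 CPM in shDis3l2 with doxycycline, against 214, 163 and 241 CPM in shNS with doxycycline, and at 269.6 CPM in untreated shDis3l2 against 139.6 CPM in untreated shNS. All 4 shDis3l2 libraries were above all 4 shNS libraries, and the difference with doxycycline did not pass (log2 fold change 0.54, SE 0.19, edgeR adjusted p = 0.149). Its paralog Atf6b was at 175, 126 and 124 CPM in shDis3l2 with doxycycline, against 149, 141 and 145 CPM in shNS with doxycycline, and at 112 CPM in untreated shDis3l2 against 143 CPM in untreated shNS (log2 fold change with doxycycline -0.06, edgeR adjusted p = 0.888). Xbp1 was at 243, 162 and 176 CPM in shDis3l2 with doxycycline, against 177, 188 and 158 CPM in shNS with doxycycline, and at 152 CPM in untreated shDis3l2 against 169 CPM in untreated shNS. Its lines overlapped (log2 fold change 0.12, SE 0.19, edgeR adjusted p = 0.788), and a count per gene does not separate its spliced from its unspliced mRNA. Eif2ak3 was at 27.8 to 28.2 CPM in shDis3l2 with doxycycline, against 27.7 to 46.0 CPM in shNS with doxycycline.

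The 5 translocon genes form or assist the channel through which new proteins enter the ER. Ssr2, a subunit of the translocon-associated TRAP complex, was at 200.1, 150.4 and 152 CPM in shDis3l2 with doxycycline, against 130.3, 157 and 150.4 CPM in shNS with doxycycline, and at 109 CPM in untreated shDis3l2 against 159.8 CPM in untreated shNS. Ssr3, another TRAP subunit, was at 205, 196 and 209 CPM in shDis3l2 with doxycycline, against 235, 307 and 256 CPM in shNS with doxycycline, and at 202 CPM in untreated shDis3l2 against 303 CPM in untreated shNS. Sec61b, the beta subunit of the channel, was at 62.3, 51.6 and 43.4 CPM in shDis3l2 with doxycycline, against 48.9, 65.1 and 48.6 CPM in shNS with doxycycline, and at 46.4 CPM in untreated shDis3l2 against 61.6 CPM in untreated shNS. Of these 3, Ssr3 was lower in every shDis3l2 library than in every shNS library (log2 fold change with doxycycline -0.42, SE 0.14, edgeR adjusted p = 0.146), and the others overlapped. The channel-forming subunit Sec61a1 and the TRAP subunit Ssr1 had log2 fold changes of -0.20 and -0.34 with doxycycline.

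Without doxycycline the lines were further apart. With 1 library per line there is no test, and the ratios compare 2 libraries. On log2 CPM minus each gene's mean, the median of the 37 genes was -0.45 in untreated shDis3l2 and 0.41 in untreated shNS. It was -0.10, 0.39 and -0.02 in shNS with doxycycline. The ratios thus set a low shDis3l2 library against a high shNS library, one that resembled replicate 2 of shNS with doxycycline. Of the 37 genes, 36 were lower in shDis3l2 than in shNS, against 49.4% of all 15250 genes, and 18 were at least 2-fold lower, against 11.3% of all genes. None was at least 2-fold higher, against 9.40% of all genes. The exception was Atf6, at a log2 ratio of 0.95. The median log2 ratio of the 37 genes was -0.81, beside 0.01 over all genes. By role, the median was -1.42 for chaperones (9 of 11 at least 2-fold lower), -1.16 for disulfide enzymes (4 of 7), -0.52 for degradation genes (3 of 8), -0.58 for sensors (2 of 6) and -0.58 for translocon genes (0 of 5).

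The lowest ratios belonged to Sdf2l1 (log2 ratio -2.02), Creld2 (-1.91), Dnajb9 (-1.90), Manf (-1.84) and Calr (-1.76), all chaperones or their partners. For Calr the count ratio was 0.295, with a 95% interval of 0.289 to 0.302, and for Hspa5 0.374 (0.368 to 0.381). For P4hb it was 0.928 (0.913 to 0.944), and these intervals cover counting error only. The untreated shDis3l2 library was the lowest of the 8 for 28 of the 37 genes (75.7%), against 13.0% of all genes. The highest library was replicate 2 of shNS with doxycycline for 16 of the 37 (43.2%, against 11.8% of all genes), replicate 1 of shDis3l2 with doxycycline for 10 (27.0%, against 19.8%) and untreated shNS for 8 (21.6%, against 13.9%). All 37 tested genes together with Derl3 took 0.5625% of the counts in untreated shDis3l2 and 0.970% in untreated shNS. With doxycycline this share was 0.822, 0.739 and 0.781% in shDis3l2, against 0.844, 0.998 and 0.751% in shNS. The untreated shDis3l2 library was not unusual in depth (37996224 counts), in genes detected (17862) or in its mitochondrial share (2.949%, within 2.65 to 3.893% over all libraries).

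**Figure D3:**
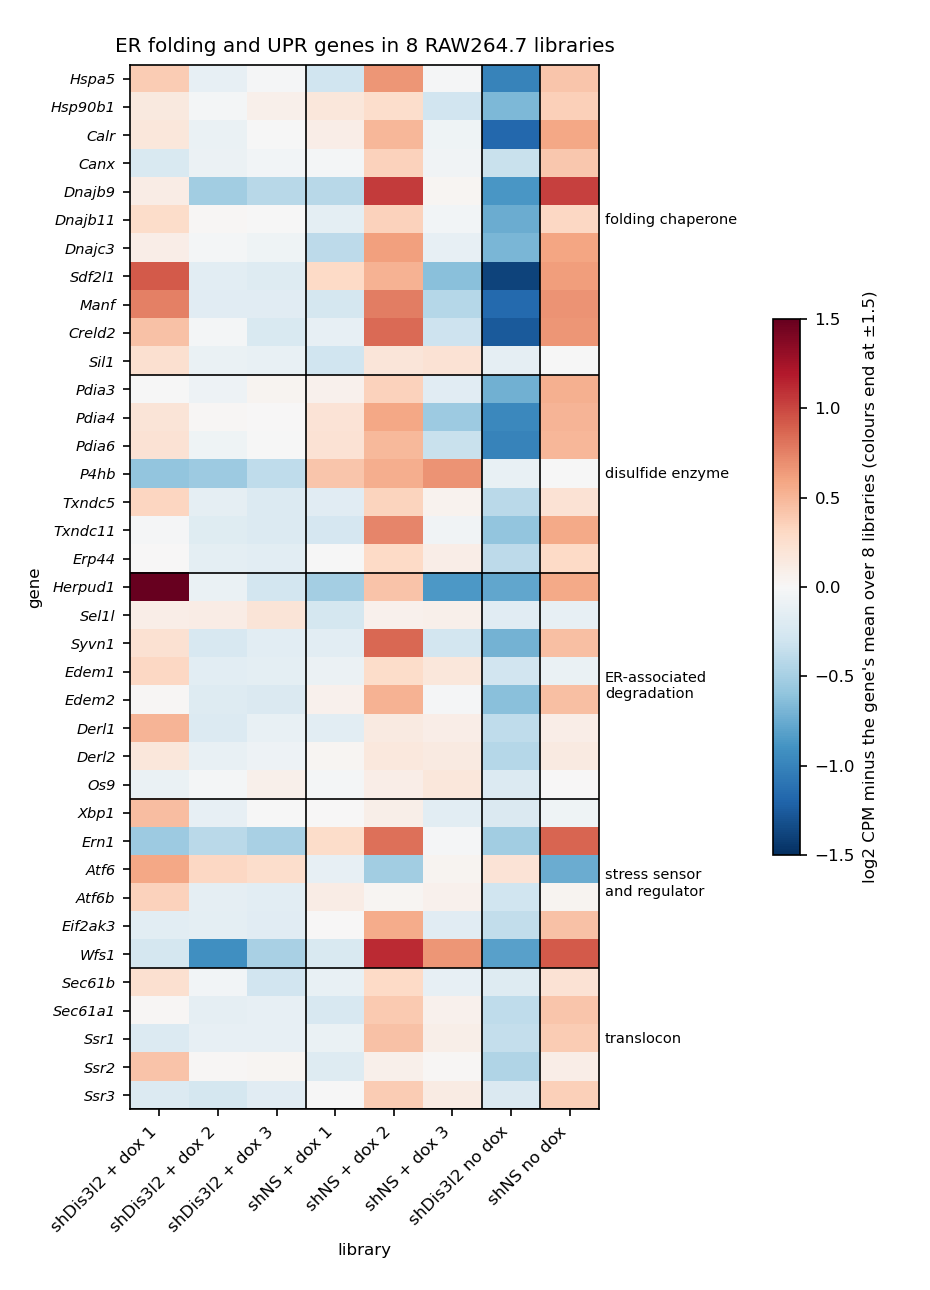
Log2 CPM of each of the 37 tested genes in each library minus that gene's mean over the 8 libraries, with genes in rows by role and libraries in columns. The column of untreated shDis3l2 is low for most genes (median -0.45), replicate 2 of shNS with doxycycline and untreated shNS are high (0.39 and 0.41), and the other doxycycline libraries lie between -0.12 and 0.17.

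Within shDis3l2, the 3 doxycycline libraries were therefore set against 1 untreated library, in a fit of all 8 libraries that assumes the lone library varies like the others. No gene of the set passed the adjusted threshold, and neither did any of all 15250 genes (0.00% in each direction). Without adjustment, 10 of the 37 were higher at p under 0.05 and 0 lower, against 2.22% and 1.09% of all genes. DESeq2 called 61 genes in this comparison, among them Calr (DESeq2 adjusted p = 0.0163) and no other of the 37. The median log2 fold change was 0.43, beside 0.00 over all genes, with 36 positive values and P4hb alone negative. All 3 doxycycline libraries were above the untreated one for 32 of the 37 genes (86.5%), against 29.3% of all genes. These values share the untreated shDis3l2 library with the ratios of the preceding comparison and are no separate support for them.

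The 10 genes were Hspa5, Hsp90b1, Calr, Dnajb11, Sdf2l1, Creld2, Pdia3, Pdia4, Pdia6 and Ssr2, which are 6 chaperones or co-chaperones, 3 disulfide enzymes and 1 translocon gene. Calr had the smallest p of them, with a log2 fold change of 1.21 (SE 0.28). Hspa5 had 1.10 (SE 0.41), and Sdf2l1 the highest value, 1.69. By role, the median log2 fold change was 0.85 for chaperones, 0.47 for disulfide enzymes, 0.46 for degradation genes, 0.25 for sensors and 0.21 for translocon genes. Replicate 1 of shDis3l2 was the highest of its 3 libraries for 28 of the 37 genes, against 45.2% of all genes.

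Within shNS the doxycycline libraries were more mixed. No gene passed the adjusted threshold (0.00% of all genes in each direction), and without adjustment 1 of the 37 was higher (P4hb) and 0 lower, against 2.95% and 1.29% of all genes. DESeq2 called 74 genes here, none of them among the 37. The median log2 fold change was -0.22, with 9 positive and 28 negative values. Replicate 2 was the highest of the 3 shNS doxycycline libraries for 31 of the 37 genes (83.8%), against 32.5% of all genes, so this comparison leans on the library that stood apart. Without it, 544 genes were called, 0 of the 37 among them, and 9 of the 37 were lower at an unadjusted p under 0.05. The share of all genes at that p was not computed without this library, so the count of 9 has no background.

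**Figure D4:**
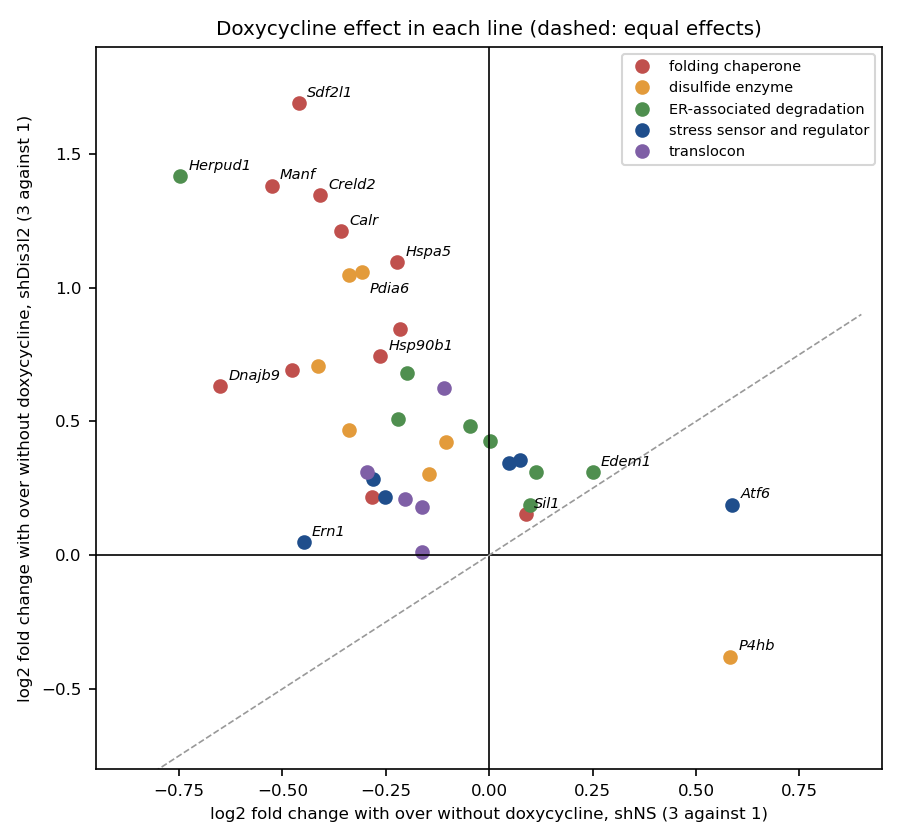
Log2 fold change with doxycycline over without it, in shNS on the horizontal axis and in shDis3l2 on the vertical axis, 1 point per gene coloured by role; the dashed line marks equal effects. Of the 37 genes, 35 lie above the dashed line, and P4hb and Atf6 lie below it.

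The difference between the doxycycline effects of the lines, shDis3l2 minus shNS, was tested as an interaction. It uses both untreated libraries again, so its values are no separate support for the untreated ratios. No gene of the set and no gene of all 15250 passed after adjustment in edgeR (0.00% in each direction). At an unadjusted p under 0.05, 9 of the 37 genes had a more positive effect in shDis3l2 and 1, P4hb, a more negative one, against 1.61% and 2.17% of all genes. DESeq2 called 37 genes, 0 of them in the set. The difference was 1.57 on the log2 scale for Calr (SE 0.38), 1.32 for Hspa5 (SE 0.55) and -0.96 for P4hb (SE 0.28). For 10 of the 37 genes, against 6.85% of all genes, every doxycycline library was above the untreated one in shDis3l2 and below it in shNS. The median difference over the 37 genes was 0.57. It was 1.28 for the chaperones, with 6 of 11 at an unadjusted p under 0.05. Without replicate 2 of shNS, 121 genes were called, again 0 of the 37. At an unadjusted p under 0.05, 18 of the 37 had a more positive effect in shDis3l2. The share of all genes at that p was not computed for this fit, so the count has no background and is no result about these genes.

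The genes with an ERSE in the promoter window, 8 of them tested, were all lowest in untreated shDis3l2, and 7 of the 8 were at least 2-fold lower there than in untreated shNS. Of the 23 tested genes with a window and no ERSE, 16 were lowest in that library and 10 were at least 2-fold lower. The median log2 ratio without doxycycline was -1.35 with the motif (range -1.92 to -0.74) and -0.74 without it (range -2.02 to -0.05), and the ranges overlapped. For the doxycycline effect in shDis3l2 the medians were 0.90 and 0.34. Between the lines with doxycycline they were -0.16 and -0.14. The stretches of Hspa5, Calr and Creld2 printed above belong to genes with untreated log2 ratios of -1.42, -1.76 and -1.91. The split also follows role, since the tested genes with the motif were chaperones apart from Pdia6 and Syvn1. Among chaperones with a window, untreated log2 ratios ran from -1.91 (Creld2) to -0.74 (Canx) with the ERSE. Those without it were Sdf2l1 (-2.02, the lowest of all), Dnajb9 (-1.90) and Dnajb11 (-1.05). Motif and role are thus not told apart here. These are descriptions of few genes, and no test was made of the split. The untreated ratios and the doxycycline effect in shDis3l2 share the untreated shDis3l2 library here too.

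Other genes of the same processes were counted in 5 lists. Of 38 tested among 39 other folding and redox genes, 1 passed higher and 1 lower between the lines with doxycycline. For this and the other lists the background over all genes tested was again 2.13% higher and 4.01% lower, so counts of 0 or 1 per list are near it. Ero1l, the oxidase that passes oxidising power to P4hb, fell to 98.3, 76.5 and 91.9 CPM in shDis3l2, against 238, 287 and 352 CPM in shNS (log2 fold change -1.75, SE 0.19, edgeR adjusted p = 0.00431), and in untreated cells it was at 98.7 CPM in shDis3l2 and 153 CPM in shNS. All 4 shDis3l2 libraries were below all 4 shNS libraries. Rcn2, a calcium-binding protein of the secretory pathway, was at 82.1, 70.8 and 68.7 CPM in shDis3l2, against 37.0, 48.3 and 50.0 CPM in shNS (log2 fold change 0.68, edgeR adjusted p = 0.0485), and at 61.2 CPM in untreated shDis3l2 against 50.03 CPM in untreated shNS. Its call was lost when any single library was left out. Rcn1 did not pass, at -0.65 on the same log2 scale (edgeR adjusted p = 0.0650).

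Of 36 other degradation genes, 0 passed higher and 1 lower. Svip, an inhibitor of this degradation route, was lower, at 0.435, 0.710 and 0.299 CPM in shDis3l2, against 4.82, 5.07 and 2.83 CPM in shNS (log2 fold change -3.17, SE 0.43, edgeR adjusted p = 0.00928). It was also lower without doxycycline, at 1.00 CPM in untreated shDis3l2 against 5.37 CPM in untreated shNS (log2 ratio -2.36). The cause of this difference was not tested. Get4 and Ubl4a, partners in a complex that handles hydrophobic proteins in the cytosol, had log2 fold changes of 0.49 and 0.34 and did not pass (edgeR adjusted p = 0.139 and 0.216). Among 41 other translocation and N-glycosylation genes none passed in edgeR. At an unadjusted p under 0.05, 2 were higher and 2 lower, against 8.80% and 12.0% of all genes tested, so both counts were below that background. The 3 with the smallest adjusted p were Dpagt1, the first enzyme of the N-glycan precursor, Stt3b, a catalytic subunit of the oligosaccharyltransferase, and Sec61a2. Their log2 fold changes were 0.60, -0.49 and -0.59 (edgeR adjusted p = 0.0663, 0.0766 and 0.0811).

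Of 19 tested among 20 genes of the PERK and ATF4 branch, 0 passed higher and 1 lower. Slc7a11, the cystine transporter, was lower, at 24.8, 11.0 and 22.4 CPM in shDis3l2, against 61.3, 62.6 and 57.0 CPM in shNS (log2 fold change -1.66, SE 0.29, edgeR adjusted p = 0.0212), and it was also lower in untreated cells, at 15.4 CPM in shDis3l2 and 76.8 CPM in shNS (log2 ratio -2.31). Leaving out replicate 1 or replicate 3 of shDis3l2 ended this call, at up to 0.0714 on the edgeR adjusted p. Ddit4 and Stc2 had log2 fold changes of -3.41 and -3.85 and did not pass (edgeR adjusted p = 0.0847 and 0.0948). Of 21 tested among 22 other ER stress regulators, 0 passed higher and 1 lower, Pik3r1, which encodes a regulatory subunit of PI3-kinase that can bind XBP1. It was lower, at 61.2, 73.4 and 65.4 CPM in shDis3l2, against 99.9, 95.8 and 104 CPM in shNS (log2 fold change -0.62, SE 0.12, edgeR adjusted p = 0.0310), and at 74.8 CPM in untreated shDis3l2 against 97.8 CPM in untreated shNS. It passed in just 1 of the 6 fits that left out a library. Traf2 and Ufm1 did not pass (edgeR adjusted p = 0.129 and 0.320).

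Without doxycycline the median log2 ratio of shDis3l2 over shNS was -0.40 for the other folding and redox genes, -0.04 for the other degradation genes, -0.37 for the translocation and N-glycosylation genes, -0.71 for the PERK and ATF4 branch and -0.12 for the other stress regulators, beside -0.81 for the 38-gene set. At least 2-fold lower in untreated shDis3l2 were 3 of 38, 2 of 36, 2 of 41, 9 of 19 and 1 of 21 tested genes of these lists in the same order, against 11.3% of all genes.

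Markers of other cell types were read in the same libraries. Fibroblast markers were at 0 in every library for 4 of 5 genes, and epithelial markers for 4 of 4. Plasma cell and B cell markers, of interest because such cells hold much ER, summed to 26.9 to 96.8 CPM in shDis3l2 with doxycycline, against 19.5 to 58.9 CPM in shNS with doxycycline, and to 38.2 CPM in untreated shDis3l2 against 23.3 CPM in untreated shNS. The macrophage markers, in a sum that rests mostly on Lyz2 and Csf1r, came to 7118.5 to 9808.1 CPM in shDis3l2 with doxycycline, against 7963.7 to 11774 CPM in shNS with doxycycline, and to 6577.6 CPM in untreated shDis3l2 against 6856.6 CPM in untreated shNS. Under these sums the single markers went opposite ways, with 4 of the 10 lower and 6 higher in untreated shDis3l2 than in untreated shNS. Adgre1, which encodes the macrophage surface protein F4/80, was at 10.7, 7.19 and 26.2 CPM in shDis3l2 with doxycycline, against 118, 62.5 and 97.7 CPM in shNS with doxycycline, and at 5.07 CPM in untreated shDis3l2 against 79.0 CPM in untreated shNS. Csf1r, the receptor for macrophage colony-stimulating factor, was at 2239, 2261 and 2194 CPM in shDis3l2 with doxycycline, against 1274, 1480.0 and 1816 CPM in shNS with doxycycline, and at 2439 CPM in untreated shDis3l2 against 1190.0 CPM in untreated shNS. Adgre1 was thus lower and Csf1r higher in every shDis3l2 library than in every shNS library.

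The osteoclast markers summed to 18.4 to 39.8 CPM in shDis3l2 with doxycycline, against 11.9 to 100.9 CPM in shNS with doxycycline, and to 28.0 CPM in untreated shDis3l2 against 3.99 CPM in untreated shNS. Their main gene, Dcstamp, which takes part in osteoclast and giant cell fusion, was at 37.1, 17.6 and 18.8 CPM in shDis3l2 with doxycycline, against 6.99, 0.377 and 58.8 CPM in shNS with doxycycline, and at 26.4 CPM in untreated shDis3l2 against 0.275 CPM in untreated shNS. It was lowest in replicate 2 of shNS with doxycycline and in untreated shNS, the libraries with the highest median level of the ER genes. T cell markers summed to at most 2.81 CPM in any library. The neutrophil markers, mostly S100a8, summed to at most 0.12 CPM in shDis3l2 with doxycycline, against 0.22 to 19.0 CPM in shNS with doxycycline, and to 0 in untreated shDis3l2 against 41.1 CPM in untreated shNS. The part of these differences in the levels of the ER genes was not tested.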

How the data were processed

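Per the labels' protocols, a stranded kit that depletes ribosomal RNA was used. Tools named in the submitters' processing notes are RSEM, STAR 2.7 and cutadapt, and the genome builds are mm10 and GRCm38. The strand setting of counting, the annotation and other versions were not given in the sources used here. Deposited values are expected counts, RSEM's estimates for each gene, not normalized by the authors. These were rounded, which changed 4.68 to 5.24% of values in a library, and all 55450 identifiers matched GENCODE M21. Reads that fit several genes are shared out by RSEM, and the values of such genes are uncertain.

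Genes passing filterByExpr (minimum count 10) were tested with edgeR 4.0.16's quasi-likelihood test (TMM, two-sided, Benjamini-Hochberg, threshold 0.05, R 4.3.3), which was also tested on simulated data. The line comparison used the 6 doxycycline libraries, and the doxycycline effects and their difference used all 8 as 4 groups. Ratios without doxycycline used a prior count of 2. DESeq2 1.42.0, limma-voom (limma 3.58.1), other scalings and filters, a 2-fold minimum, a block on the replicate number, all libraries in 1 fit and leaving out libraries were alternatives. No replicates agreed within counting noise.

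The members and lists were chosen with earlier results of these data known. Values in every library are given for members past the threshold and the 3 of each role with the highest mean CPM per kilobase, and, of each list, up to 3 genes with the smallest adjusted p are named. Any other gene given in full was chosen after its values were seen.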

Additional observations from a re-analysis of the deposited data

How the results depend on the processing

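The line comparison with doxycycline called 845 genes and 1 of the members, P4hb, which stayed lower in all 14 alternatives and missed the threshold in 1. DESeq2 called 1790 genes and 3 members lower, and dropping the low-count filter gave 2 members lower. Over fits that left out 1 library, the genes called ran from 203 (without replicate 2 of shDis3l2) to 1157, and were 464 and 259 without its replicates 1 and 3. Members called lower ran from 0 to 2 (2 without replicate 1 or 3 of shNS), members at an unadjusted p under 0.05 from 0 to 1 higher and from 2 to 6 lower (2 without replicate 2 of either line), and the members' median log2 fold change from -0.25 to 0.0028. For the doxycycline effect in shDis3l2, DESeq2 called 61 genes and 1 member higher, and 6 (without replicate 1 of shDis3l2) to 14 members were higher at an unadjusted p under 0.05 when 1 library was left out. For the effect in shNS, DESeq2 called 74 genes and put 2 members higher at an unadjusted p under 0.05, and leaving out 1 library gave 0 to 544 genes, 0 to 1 members higher and 0 to 9 lower at that p. For the difference between the effects, DESeq2 called 37 genes, and leaving out 1 library gave 0 to 121 genes, 5 (without replicate 1 of shNS) to 18 (without its replicate 2) members more positive in shDis3l2 at that p and medians of 0.45 to 0.80. In the fits without 1 library fewer samples were compared, and the cause of the other changes was not tested. For the alternatives the share of all genes at an unadjusted p under 0.05 was not computed, so their member counts at that p have no background.

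Of 588 values for single genes under an alternative, 528 kept their direction and their side of the threshold, 20 lost a call, 5 gained one and 35 changed sign, none of the last past the threshold. 3 settings that kept all libraries turned a value near 0: Hsp90b1 was at 0.012 with library size alone, and Dnajb11 at -0.0027 with DESeq2's size factors and at -0.0014 with the filter of 1 CPM. The others came from leaving out 1 library, with log2 fold changes of -0.25 to 0.045 for Atf6b, -0.39 to 0.27 for Creld2, -0.22 to 0.19 for Derl1, -0.099 to 0.16 for Dnajb11, -0.30 to 0.22 for Dnajc3, -0.011 to 1.27 for Herpud1, -0.19 to 0.070 for Hsp90b1, -0.28 to 0.21 for Hspa5, -0.33 to 0.52 for Manf, -0.36 to 0.16 for Pdia4, -0.34 to 0.050 for Pdia6, -0.36 to 0.34 for Sdf2l1, -0.22 to 0.072 for Sec61b, -0.19 to 0.021 for Sil1, -0.51 to 0.14 for Syvn1, -0.29 to 0.038 for Txndc5 and -0.081 to 0.25 for Xbp1.

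Same-numbered libraries of the lines did not deviate together (correlations of -0.13, 0.03 and -0.00 across genes), so the numbers were not taken as pairs. With the replicate number as a block, 421 genes were called, and 2 members were lower at an unadjusted p under 0.05. Depth limits the statements for Derl3 and, to a lesser degree, Wfs1, and the untreated ratios have no replicate at any depth.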

Other observations

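Of the 19 tested genes of the PERK and ATF4 branch, 7 were highest in replicate 1 of shDis3l2 with doxycycline, against 19.8% of all genes. The other 12, Slc7a11, Ddit4 and Stc2 among them, were highest elsewhere. In the other lists this held for 15 of 36 degradation genes and 12 of 38 folding and redox genes. It also held for 12 of 41 translocation and N-glycosylation genes and 6 of 21 other stress regulators. A peak in this library was thus not particular to the PERK and ATF4 branch. The 3 genes that follow were chosen from the 7 after their values were seen. Atf4, the transcription factor of this branch, was at 287, 124 and 116 CPM in shDis3l2 with doxycycline, against 139, 95.7 and 116 CPM in shNS with doxycycline, and at 97.4 CPM in untreated shDis3l2 against 143 CPM in untreated shNS. Chac1, a glutathione-degrading enzyme that ATF4 raises, was at 29.3, 4.20 and 3.35 CPM in shDis3l2 with doxycycline, against 3.68, 1.19 and 1.13 CPM in shNS with doxycycline, and at 0.411 CPM in untreated shDis3l2 against 3.99 CPM in untreated shNS. The pseudokinase gene Trib3 was at 8.84, 0.799 and 0.568 CPM in shDis3l2 with doxycycline, against 4.02, 1.22 and 3.74 CPM in shNS with doxycycline, and at 0.103 CPM in untreated shDis3l2 against 2.67 CPM in untreated shNS. For each of these genes replicate 1 was above every other library, and untreated shDis3l2 was below all others for Chac1 and Trib3. In the gene set 10 of 37 genes (27.0%) were highest in replicate 1 of shDis3l2, which is near that background.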
